A study of Drosophila melanogaster with 4 samples.

Results

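Short but strongly enriched regions of H4K20me1, histone H4 carrying a single methyl group on lysine 20, were examined in Drosophila melanogaster embryos. They were the regions of the combined list, called by the authors over the replicate set, that were narrower than 5 kb and had a score of 1 or more on chromosome arms 2L, 2R, 3L, 3R, X and on chromosome 4. The score is the authors' value for each region and was read from its values as a log2 ratio, so a score of 1 is a 2-fold ratio. The rule found 469 regions among the 4746 regions under 5 kb, the 6754 enriched regions of these 6 sequences and the 6850 of the whole list. The other 4277 regions under 5 kb scored below 1 and are called weak short regions here.

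Chromatin was immunoprecipitated and sequenced from 2 ChIP replicates of wild-type Oregon-R embryos at the 14 to 16 h stage, with the 4th lot of an antibody to H4K20me1. Each replicate had its own input, giving 2 input samples of the same strain and stage, which entered only through the authors' lists. The labels name no other genotype and no treatment, and the protocol states formaldehyde crosslinking. Whole embryos mix many cell types, so a mark in few cells and a weaker mark in many cells cannot be told apart. Positions are on FlyBase release 5.

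H4K20me1 is placed on nucleosomes by the methyltransferase PR-Set7, also called Set8, mainly late in the cell cycle. The same residue can then receive further methyl groups from Suv4-20. Proteins with MBT repeats, such as L(3)mbt in flies, bind the monomethylated form, and the mark is known both from compacted chromatin and from the bodies of genes. It often forms broad domains, whereas the regions described here were chosen by a width limit of 5 kb and a score floor.

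The lists hold no read counts, so depth is unknown. Each replicate list was compared with the combined list, but all 3 rest on the same 2 ChIP libraries, and whether the replicates came from separate embryo collections is not stated in the labels. Regions of 1 list are not replicates of one another, so the values below are descriptions without a test. Spread is given over the 2 replicate lists wherever the same rule could be applied to each.

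The 469 regions were chosen by width and score in the combined list, so these 2 values are given only to describe them. Together they spanned 1782 kb, which was 4.74% of the marked bases and 1.48% of the 6 sequences. Widths ran from 1021 to 4990 bp with a median of 3870 bp, so most regions lay near the upper limit. Scores ran from 1.00 to 2.66 with a median of 1.27, ratios of 2.00-fold to 6.30-fold with a median of 2.41-fold. Most lay toward the floor: 110 regions scored 1.5 or more and 19 scored 2 or more. By the same score floor 25.2% of all regions of the list were strong. Without a score floor, the median score was 1.09 for regions of 5 to 20 kb and 1.41 for those of 20 kb or more. High scores were thus not particular to short regions.

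Strong regions were a larger part of the wider classes. They made up 9 of 2035 regions of 1 to 2 kb (0.442%), 56 of 1381 of 2 to 3 kb (4.06%), 201 of 802 of 3 to 4 kb (25.1%) and 203 of 528 of 4 to 5 kb (38.4%). Between 2 and 5 kb the scores ran on without a break across the floor. The 2 regions just inside it scored 1.002 and 1.004, and the 2 just outside scored 0.998 and 0.997. At the width limit, the 2 regions just inside were 4990 and 4989 bp wide with scores of 1.62 and 1.43, and the 2 just outside were 5001 and 5002 bp wide with scores of 1.66 and 1.26. Below 2 kb there was a gap instead: the 9 strong regions scored 1.30 or more, while the highest score of the 2026 weak ones was 0.829.

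**Figure D1:**
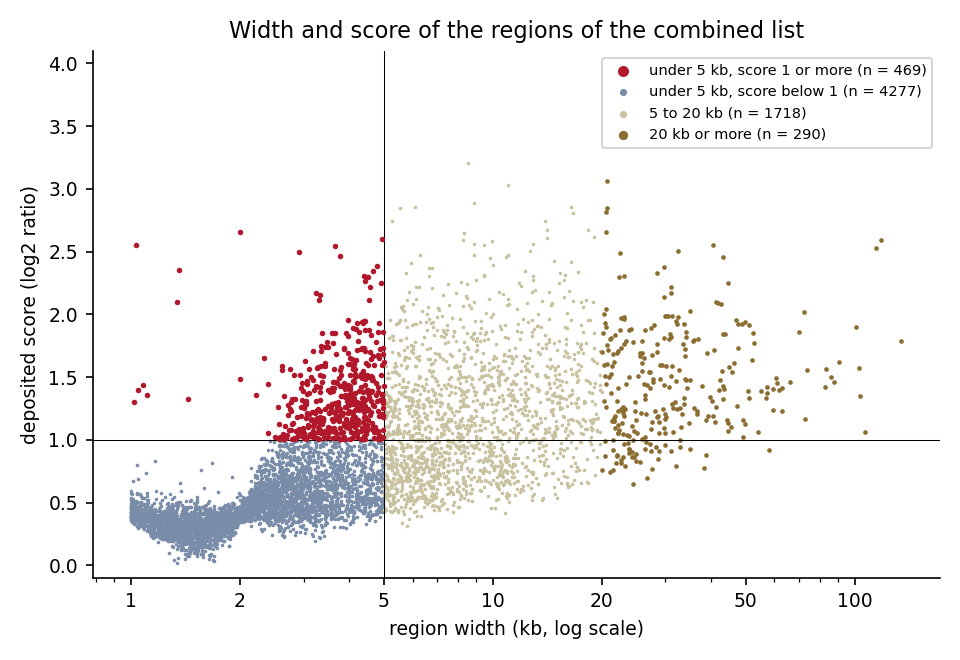
Width in kb (log scale) against the deposited score (log2 ratio) for every enriched region of the combined list on the 6 sequences, with the 469 short strong regions in red and lines at 5 kb and at a score of 1. Between 2 and 5 kb the red points continue the cloud of weak regions upward, whereas the few red points below 2 kb stand apart from it at scores of 1.30 or more.

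Nearly all short strong regions were present in both replicates. A region of each replicate list overlapped 459 of the 469 (97.9%), against 2118 of 4277 weak short regions (49.5%), and 67.8% of all regions of the combined list. The share was 99.7% for regions of 5 to 20 kb and 100% for those of 20 kb or more, so high recovery was not particular to short strong regions. The same 459 overlapped by at least 50% of both regions. Score and recovery come from the same libraries, so this share describes the list and is no independent check. Recovery also grew with width in weak regions. At 3 to 4 kb all 201 strong regions were in both replicates, against 88.0% of the 601 weak ones, and at 4 to 5 kb all 203 were, against 92.6% of the 325 weak ones. At 2 to 3 kb the share was 98.2% of 56 strong and 76.4% of 1325 weak regions. The order was the opposite at 1 to 2 kb, with 0 of the 9 strong regions and 13.6% of the 2026 weak ones.

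In the replicates these regions were again single, short and strong. As 1 region in each replicate, 456 of the 469 were found (97.2%), against 46.9% of weak short regions and 53.8% of all regions. Most of this difference is one of presence, since a region absent from a replicate cannot be single in it. Among regions in both replicates, 456 of 459 strong and 2004 of 2118 weak short regions were single in each. In 421 of the 469 (89.8%), the counterpart was under 5 kb and scored 1 or more in both replicates, compared with 7.15% of all regions, a share that the rule itself raises. Of the 459, 444 scored 1 or more in replicate 1 and 441 in replicate 2. A counterpart of 5 kb or more in 1 or both replicates was found for 6. Counterparts in replicate 1 scored 0.880 or more and were at most 5782 bp wide, and those in replicate 2 scored 0.840 or more and were at most 6063 bp wide. None of the 459 scored under 1 in both replicates. Their median score was 1.26 in the combined list, against 1.32 in replicate 1 and 1.31 in replicate 2. The floor of 1 thus lay lower against their scores in the replicates.

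Scores were close between the replicates. Over the 459 regions the median score was 1.32 in replicate 1 and 1.31 in replicate 2, and 253 regions scored higher in replicate 1. Across these 459 regions, Pearson's r between replicate scores was 0.875 and Spearman's rho was 0.808. Both depend on a range that the rule restricts, and regions share their libraries. The absolute difference had a median of 0.099 and a ninetieth percentile of 0.24. The median was 0.086 for the 2118 weak short regions in both replicates, so close scores were not particular to strong ones. Among the 459, the largest difference, 0.91, was on 2R from 6905535 to 6908445. Its scores were 2.95 in replicate 1 and 2.04 in replicate 2.

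**Figure D2:**
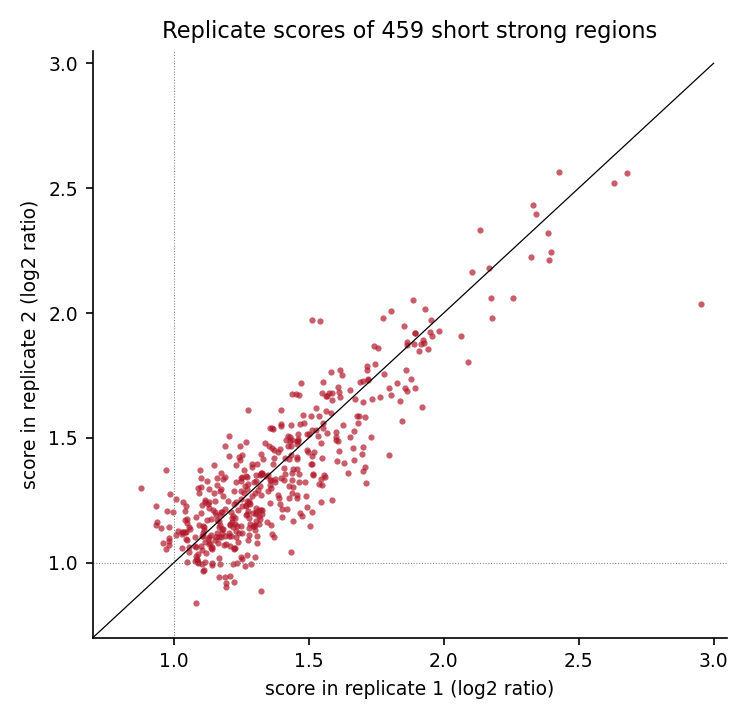
Score (log2 ratio) in replicate 1 on the x axis and in replicate 2 on the y axis for the 459 short strong regions present in both, 1 point a region, with the line of equal scores and dotted lines at 1. Points follow the line, and the one far to its right is the 2R region with 2.95 in replicate 1 and 2.04 in replicate 2.

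The edges of short strong regions were placed closer together in the replicates than those of weak ones. The rule did not use edge differences, but it cut on width, which the edges set. The lists also rest on the same libraries, so this is no independent check. Where both replicates held 1 region, the starts differed by 62 bp and the ends by 69 bp at the median (456 regions), against 124.5 and 128 bp in weak short regions (weak regions found once in each replicate). The difference was present at matched width. At 3 to 4 kb the medians were 59 bp for starts and 59 bp for ends in 200 strong regions, against 155 and 164 bp in 499 weak ones. At 4 to 5 kb they were 79 and 81 bp in 201 strong regions, against 161 and 196 bp in 229 weak ones. The edges of strong regions were thus nearer to each other in both width classes. Over the 456 strong regions, 67.3% of starts and 70.0% of ends lay within 100 bp, and the ninetieth percentiles were 214 and 219 bp. Edge differences are not given for regions of 5 kb or more.

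The 10 short strong regions that were not in both replicates were the narrowest of the set. They were 1021 to 2003 bp wide, and the narrowest region found in both was 2213 bp wide, so the widths did not overlap. Of the 10, 9 touched no region of either replicate, which was 1.92% of the 469, against 1048 weak short regions (24.5%) and 15.6% of all regions. Their scores were not low: the 9 had a median of 1.48, against 1.26 for the regions in both, and 2 of the 5 highest scores of the set were theirs. The replicate lists hold no region narrower than 1301 bp, whereas the combined list goes down to 1001 bp. Of the 9, 5 were narrower than 1301 bp.

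The absent regions with the highest scores had positions where both replicates called only neighbours. On 3L from 9570514 to 9572516, 2003 bp wide, the combined score was 2.66, the highest of the 469. The nearest replicate regions were 366 bp away in replicate 1 (score 0.72) and 734 bp away in replicate 2 (score 0.60). On 2L from 4540964 to 4541998, 1035 bp wide, the score was 2.55, and the replicate regions nearest to it were 5561 and 5442 bp away. In the combined list the nearest other region was 388 bp from the 3L region and 4833 bp from the 2L one. Within 25 kb, other regions covered 80.0% and 75.6% of bases around them, but neither had a counterpart of its own.

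Further cases lay on 3R from 17127077 to 17128430 (score 2.35, 1354 bp) and on 3L from 22096414 to 22097753 (score 2.10, 1340 bp). The 3R region was 1608 and 1033 bp from the nearest region of replicates 1 and 2. The 3L region was isolated, with 24706 and 24712 bp to the nearest. A region of replicate 1 alone overlapped the tenth, on 2R from 251629 to 253068, near the centromere end. It scored 1.33 in the combined list and 2.73 in replicate 1, while the nearest region of replicate 2 was 103432 bp away. In the replicate lists themselves, strong regions under 2 kb were rarer still, at 2 of 1496 (0.134%) in replicate 1 and 2 of 1452 (0.138%) in replicate 2. Of these 4, 2 had a strong counterpart in the other replicate just above that width and a counterpart among the 469. On 2L from 5176107 the replicate regions were 2001 and 1785 bp wide with scores of 1.68 and 1.56, and on X from 17688267 they were 1990 and 2015 bp wide with scores of 1.44 and 1.68, for replicates 1 and 2 in that order.

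Applied to each replicate list, the rule found more regions than in the combined list: 702 in replicate 1 and 669 in replicate 2, a mean of 685.5 ± 23.3 (SD, n = 2), against 469. Scores ran higher in the replicate lists, so a floor of 1 is not the same cut in each list. Weak short regions had a median of 0.61 in replicate 1 and 0.60 in replicate 2, against 0.42 in the combined list. For regions of 5 to 20 kb it was 1.26 and 1.22, against 1.09. How far this bears on the counts was not tested. Of the 702, 443 (63.1%) corresponded to one of the 469, 168 (23.9%) lay in a combined region of 5 kb or more, and 91 (13.0%) in a short region scoring below 1. Of the 669, the numbers were 438 (65.5%), 139 (20.8%) and 92 (13.8%). All regions had a counterpart in the combined list. The wider regions that took them in had a median width of 7820 bp for replicate 1 and 7171 bp for replicate 2. These strong sites of the replicates were parts of longer stretches in the combined list.

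The neighbours of short strong regions were themselves stronger than those of weak ones. The nearest other region had a median score of 0.72, against 0.51 next to weak short regions. It scored 1 or more for 160 of the 469 (34.1%), against 854 of 4277 (20.0%), and 24.3% of all regions. Replicate lists gave 40.8% ± 0.153 for strong and 27.8% ± 1.247 for weak short regions (SD, n = 2), with 33.8% of all regions in replicate 1 and 32.5% in replicate 2. The difference was larger than the spread between replicates. It was also seen among regions of 3 to 5 kb, at 33.4% of 404 strong and 17.8% of 926 weak regions of the combined list. Strong neighbours were not particular to short strong regions. In the combined list the share was 29.9% for regions of 5 to 20 kb and 39.7% for those of 20 kb or more. The replicate lists gave 39.6% ± 0.351 and 47.2% ± 4.22 for these 2 classes (SD, n = 2).

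Their own score exceeded that of the nearest other region in 372 of the 469 (79.3%), against 1527 weak short regions (35.7%) and 50.1% of all regions. The score floor fixes most of this, and nothing is read from it; regions of 5 to 20 kb gave 72.8% and wide ones 80.7%. The nearest region was 5 kb or wider for 170 (36.2%), against 25.3% for weak short regions and 30.2% of all regions. The nearest other region of score 1 or more lay 7.76 kb away at the median (quartiles 1.79 and 22.2 kb), against 15.4 kb for weak short regions (quartiles 4.24 and 42.6 kb).

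Short strong regions stood slightly farther from their closest neighbour of any score. The median distance between edges was 1113 bp (quartiles 364 and 3396 bp), against 878 bp for weak short regions (quartiles 277 and 2569 bp). The distributions overlapped over nearly their whole range. In the replicate lists the median was 1277 bp ± 52.3 for strong and 1174 bp ± 67.2 for weak short regions (SD, n = 2). The difference was larger at matched width. For regions of 3 to 5 kb the median was 1113 bp for strong and 660 bp for weak regions in the combined list. It was 1223 bp for strong and 835 bp for weak regions in replicate 1, and 1360 bp for strong and 963 bp for weak regions in replicate 2.

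Neighbours close by were somewhat less common around short strong regions. A neighbour lay under 1 kb away for 219 of the 469 (46.7%), against 52.8% of weak short regions and 53.8% of all regions. On both sides at once this held for 45 (9.59%), against 12.3% of weak short regions and 12.3% of all regions. The nearest region was more than 10 kb away for 41 (8.74%), against 6.48% of weak short regions and 6.69% of all regions. In the replicate lists the share more than 10 kb away was 10.4% in replicate 1 and 11.2% in replicate 2, against 7.35% and 8.84% of weak short regions, and 7.85% and 8.79% of all regions. The share beyond 10 kb was thus above that of all regions in each of the 3 lists, which rest on the same 2 libraries. This excess was not tested. At 3 to 5 kb, 8.17% of strong and 4.00% of weak regions of the combined list were that far from a neighbour. The corresponding values were 10.8% of strong and 5.87% of weak regions in replicate 1, and 11.96% of strong and 7.63% of weak regions in replicate 2. With a cut of 20 kb the values lay closer together. In the combined list they were 4.05% of short strong, 3.27% of weak short and 3.30% of all regions. Short strong regions gave 4.99% in replicate 1 and 4.93% in replicate 2, against 3.76% and 4.12% of all regions.

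The surroundings were marked to a like extent. Within 25 kb on each side, other regions covered a median of 39.3% of bases around short strong regions and 38.8% around weak ones. What differed was the part covered by regions of score 1 or more, at 16.1% against 9.97%. No such base was found within 25 kb of 104 short strong regions (22.2%), against 37.8% of weak short regions and 33.9% of all regions. No base of any other called region was found around 11 (2.35%), against 2.20% of weak short regions and 2.27% of all regions.

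Distance to the wide domains of 20 kb or more gave no steady difference. In the combined list, which holds 290 such domains, the median distance was 111 kb for 465 short strong regions, against 139 kb for weak short regions. Chromosome 4 has no wide region, so its 4 short strong regions have no value. In the replicate lists the order was reversed, with medians of 184.8 and 176.1 kb for strong regions in replicates 1 and 2, against 176.9 and 169.5 kb for weak ones. A wide domain lay under 5 kb away for 21 (4.48%), against 5.14% of weak short regions and 6.03% of all regions. Within 20 kb there was one for 69 (14.7%), against 12.4% of weak short regions and 14.4% of all regions. In the replicate lists a wide domain was under 5 kb away for 2.71% in replicate 1 and 3.14% in replicate 2, against 3.58% and 4.20% of weak short regions, and 4.97% and 5.12% of all regions. It was under 20 kb away for 8.55% and 9.42%, against 9.36% and 10.3% of weak short regions, and 11.3% and 12.1% of all regions. Of these shares, the one within 20 kb in the combined list was near the background and the others were below it.

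**Figure D3:**
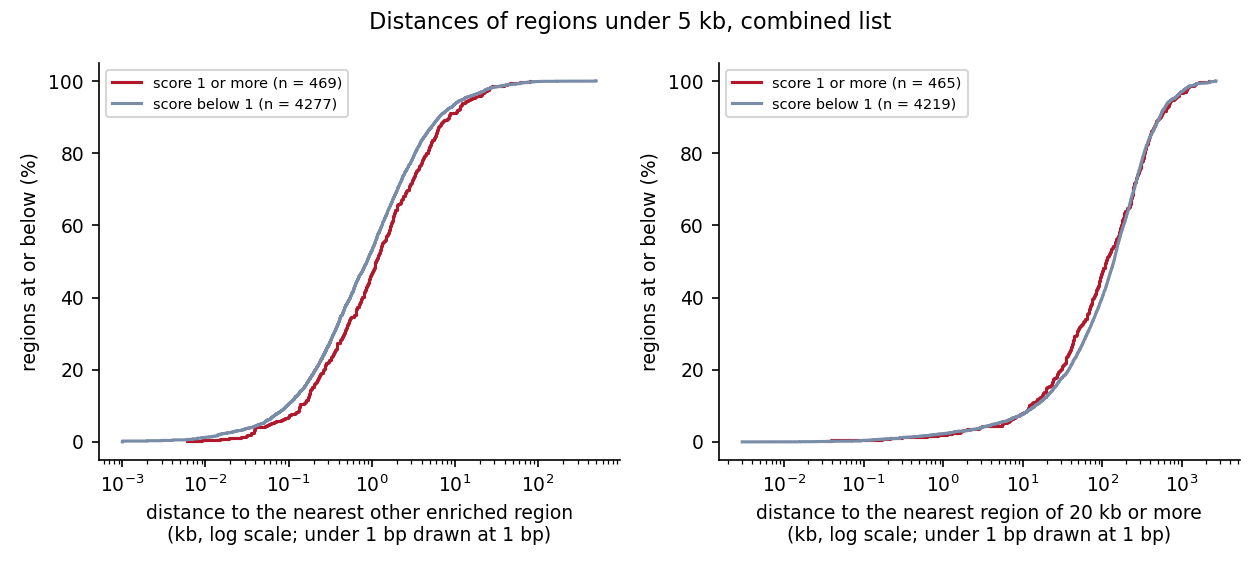
Cumulative percentage of regions under 5 kb of the combined list, score 1 or more in red and below 1 in grey-blue, by distance in kb (log scale) to the nearest other region (left) and to the nearest region of 20 kb or more (right). On the left the red curve runs to the right of the other, with medians of 1113 and 878 bp; on the right the curves lie close together and meet at long distances.

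**Figure D4:**
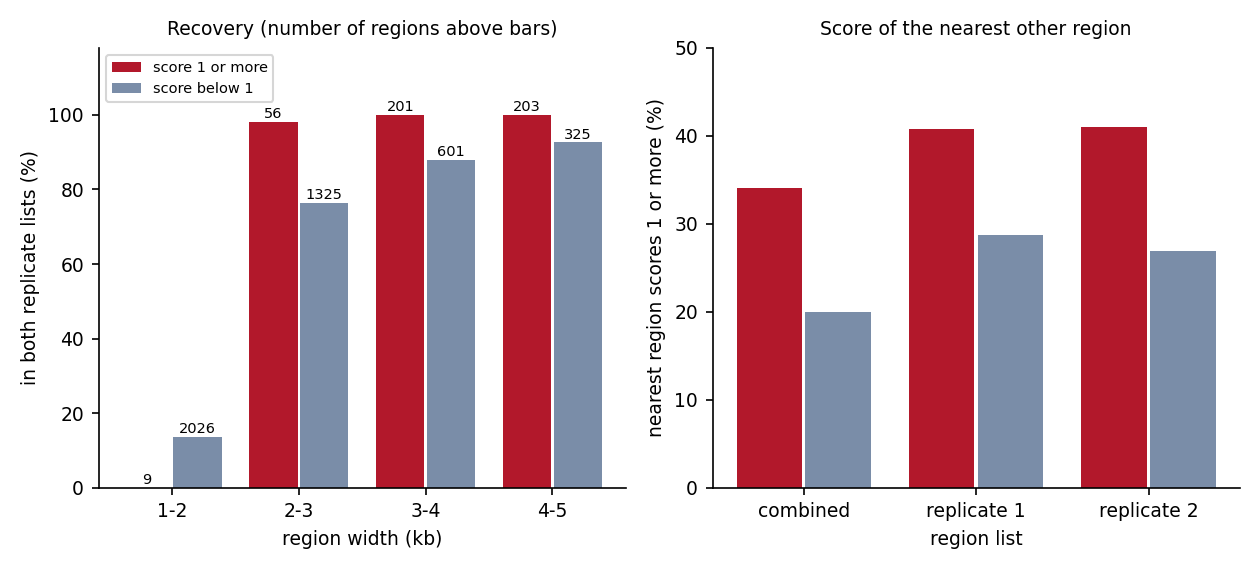
Left, percentage of regions of the combined list present in both replicate lists by width class in kb, with the number of regions above each bar; right, percentage of short regions whose nearest other region scores 1 or more, in each list; score 1 or more in red, below 1 in grey-blue. None of the 9 strong regions under 2 kb was present in both replicates, and on the right the red bar is the taller one in all 3 lists.

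Short strong regions occurred on all 6 sequences. In the combined list there were 87 on X, 76 on 2L, 104 on 2R, 97 on 3L, 101 on 3R and 4 on chromosome 4. Density was highest on 2R, at 4.92 per Mb in the combined list and 6.90 ± 0.268 per Mb in the replicates (SD, n = 2). Arm 2R was also the densest large arm in the combined list for weak short regions, at 38.5 per Mb, and for all regions, at 63.7 per Mb. Of the short regions on 2R, 11.3% were strong in the combined list, against 9.88% over the 6 sequences, and 17.9% ± 0.0119 in the replicates, against 16.5% ± 0.340 (SD, n = 2). Density was lowest among the large arms on 2L, at 3.30 per Mb in the combined list and 5.15 ± 0.399 per Mb on average in the replicates (SD, n = 2). The order of 2R above 3L, 3R, X and 2L was not the same in all lists, since X stood above 3R in the combined list and 2L above X in replicate 1, but 2R came first in each.

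X was close to the autosomal arms in the combined list and somewhat below them in the replicate lists. Short strong regions numbered 3.88 per Mb of X and 3.91 per Mb of 2L, 2R, 3L and 3R together in the combined list. The replicate lists gave 5.37 ± 0.0315 per Mb of X and 5.77 ± 0.242 per Mb of the autosomal arms (SD, n = 2), so X was lower there by more than 1 SD. All regions together were also sparser on X there, at 44.5 per Mb, against 50.7 per Mb of the autosomal arms in replicate 1, and 44.9 against 50.2 in replicate 2. Without the 2 Mb next to each centromere the difference in the combined list was 0.020 per Mb with X higher. Of the short regions on X, 9.85% were strong, against 9.94% of those on the autosomal arms, and the replicates gave 16.8% ± 0.148 on X and 16.5% ± 0.424 on the autosomal arms (SD, n = 2). Scores had a median of 1.29 on X, against 1.26 for the autosomal arms.

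**Figure D5:**
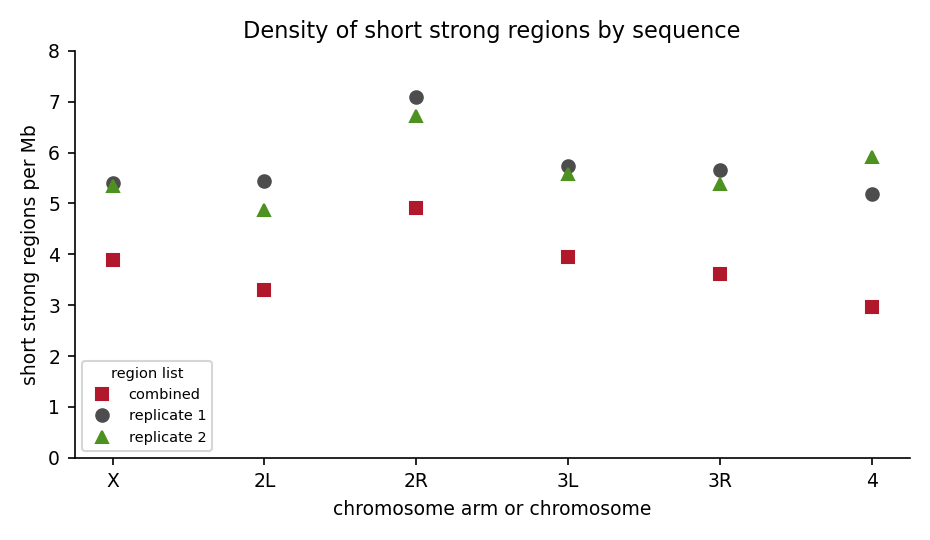
Short strong regions per Mb on each chromosome arm and on chromosome 4, with 1 symbol for each of the 3 lists. Arm 2R is the densest in every list, X lies near 3L, 3R and 2L, and the combined list is below the replicates throughout.

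Short strong regions were also counted along the arms, as a description only. Of 241 windows of 500 kb on the large arms, 56 held none, and the fullest, on X from 15500001 to 16000000, held 8, with 9 by the same rule in each replicate. The nearest other short strong region was 57.8 kb away at the median. Of the 469, 76 (16.2%) were followed or preceded in the list by another one. With gaps under 2 kb, 2 runs held 3 of them and 19 held 2, while 425 stood alone. The same counts are not given for weak short regions or for all 6754 regions. Whether the 469 were more clustered than other regions was therefore not tested.

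Both runs of 3 had the weakest region in the middle. On 2R from 6387219 to 6399466 (12.2 kb) the scores were 1.502, 1.02 and 1.87, with 1.60, 1.23 and 1.89 in replicate 1 and 1.505, 1.06 and 1.92 in replicate 2. The last 2 were separated by 31 bp. On X from 15744602 to 15758416 (13.8 kb) the scores were 1.57, 1.17 and 1.88, with 1.70, 1.20 and 1.81 in replicate 1 and 1.46, 1.246 and 2.01 in replicate 2. The first run of 2, on 2L from 5539087 to 5546169, had scores of 1.22 and 1.13 across a gap of 323 bp.

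Among the regions present in both replicates, the highest score was on 3R from 255298 to 260248 (4951 bp), within the 2 Mb next to the centromere of that arm. It scored 2.60 in the combined list, a 6.05-fold ratio, and 2.62 ± 0.0842 in the replicates (SD, n = 2). On X from 6170153 to 6173803 (3651 bp) the score was 2.55, and 2.57 ± 0.0793 in the replicates. The third by score was the 2R region from 6905535, at 2.50, whose replicates differed most. It lay 2938 bp from an 83.4 kb domain of score 1.56.

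The 5 short strong regions farthest from any other region were all present in both replicates. All 5 were 3 to 5 kb wide, a class in which all 404 short strong regions were in both. The narrower 3L region from 22096414, at 24680 bp from any other, was in neither. On 2L from 14490185 to 14494411 (4227 bp) the nearest regions were 80318 and 105525 bp away on its sides, and the score was 1.79, with 1.88 in replicate 1 and 1.74 in replicate 2. On 3R from 14410720 to 14415162 (4443 bp) the nearest regions were 172827 and 60925 bp away, with scores of 2.26 in the combined list, 2.39 in replicate 1 and 2.21 in replicate 2. These were strong sites in stretches where no other region was called.

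The other 3 isolated sites were weaker. On 3R from 8041968 to 8045724, at 61489 bp from the nearest region, the score was 1.15 in the combined list and 1.18 ± 0.0143 in the replicates (SD, n = 2). On 3L from 7424402 to 7428612, at 46214 bp, it was 1.26, with 1.33 ± 0.128 in the replicates. On 2L from 22426196 to 22429882, at 42229 bp, it was 1.68, with 1.69 ± 0.109 in the replicates.

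Short strong regions were also found next to the centromeres of all 5 large arms. The 2 Mb next to the centromere held 9 of them on 2L and 9 on 3R, against 5 on X, 3 on 2R and 3 on 3L. On 2L they made up 18.8% of the short regions of that end, against 8.15% in the rest of the arm. The replicates gave 31.7% and 23.8% at that end of 2L, against 14.7% and 13.8% in the rest. On 2R the order was the opposite, at 5.45% in that end and 11.7% in the rest of the arm in the combined list. The counts are small, and no pattern was shared by all arms. Of the 5 short strong regions farthest from a wide domain, 4 were on X near its centromere end, from 21210487, 21240191, 21256296 and 21937999, at distances of 1464, 1494, 1510 and 2191 kb. Their combined scores were 1.12, 1.17, 1.19 and 1.29, all with counterparts in both replicates. The remaining one was the 2R region from 251629 that only replicate 1 held, at 1627 kb.

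Chromosome 4, the small and largely heterochromatic autosome, had 4 short strong regions among its 62 short ones (6.45%). The strongest, from 1052580 to 1055887, scored 2.11 in the combined list and 2.18 and 2.06 in replicates 1 and 2, with a width of 3287 bp in each. The region from 804616 to 808527 scored 1.34, with 1.247 in replicate 1 and 1.47 in replicate 2. The other 2 were near the floor, at 1.09 from 593388 and 1.05 from 945226, and the last of these scored 1.08 in replicate 1 and 0.84 in replicate 2. The rule gave 7 regions in the list of replicate 1 and 8 in that of replicate 2.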

How the data were processed

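Per the submitters' processing notes, alignment used Bowtie 0.12.7. The authors deposited lists of enriched regions placed on FlyBase release 5, per the file headers. No source used here names the region caller, its settings or how the replicate set was combined. The deposited score per region was read as a log2 ratio from its values: within 1e-09, score differences equalled the base-2 logarithm of a ratio of small whole numbers in 638 pairs of the combined list, and the natural or base-10 one in 0. What the ratio is taken over is unknown. Scores were used within a list and set side by side for overlapping regions.

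Distances are bases between edges, overlap means at least 1 shared base, and flanks are 25 kb. Regions were named by rank: highest score, farthest from any region or from a wide one, absent from a replicate, longest runs and nearest the limits. The regions of chromosome 4, the highest scores among regions in both replicates, the largest score difference between replicates and the narrow strong regions of the replicate lists were chosen after their values were seen. The rule, classes and comparisons were chosen with earlier results of these data known. Distances and overlaps were tested on simulated data. Python 3.11.15, numpy 2.4.6, pandas 2.3.3, scipy 1.17.1 and matplotlib 3.10.9 were used. Neither genes nor sequences are given, because the gene table at hand describes release 6 and positions were left unconverted.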

Additional observations from a re-analysis of the deposited data

Results flagged for a closer look

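Regions outside the 6 sequences, on heterochromatic and unplaced sequence, were not part of the comparisons and also held short strong regions. By the same rule there were 42 among the 91 short regions there (46.2%), with a median score of 1.88. Of these, 39 lay on the unplaced sequence U and 1 each on 2RHet, 3LHet and YHet, and 27 of the 42 overlapped regions of both replicates. Much of this sequence is repetitive, and no source used here says how reads from repeats were handled.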

How the results depend on the processing

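Differences are strong minus weak short regions. The number of short strong regions was 65 with a width limit of 3 kb, 110 with a score of 1.5 or more and 254 after merging regions less than 1 kb apart, each stricter by construction, and 669 to 702 in a single replicate list. It was 461 without regions narrower than 1.5 kb and 440 without the 2 Mb next to each centromere. Presence in both replicates was 84.6% with the 3 kb limit, 99.6% without regions narrower than 1.5 kb and 100% at 3 to 5 kb, since the absent regions are the narrowest, and 97.9% to 98.1% in either replicate alone. The difference in distance to the nearest region was 612 bp with the 3 kb limit, 320 bp at a score of 1.5, 473.5 bp after merging, 149 bp without regions narrower than 1.5 kb, 254 bp with regions of both replicates only, 452.5 bp at 3 to 5 kb, and 93 to 114 bp in single replicate lists, against 235 bp. The difference in the nearest score, 0.21, was 0.24, 0.28 and 0.19 with the 3 kb limit, at 1.5 and at 3 to 5 kb, and 0.14 in each replicate list (0.137 to 0.143). The difference in distance to a wide region, -27850 bp, was -62849 bp with the 3 kb limit, -31272 bp at 1.5, -11830 bp after merging, -21398 bp without regions narrower than 1.5 kb, -32426 bp without the centromere ends, -3404 bp with wide set at 10 kb, -16028 bp with regions of both replicates and -14065 bp at 3 to 5 kb. It was reversed in each replicate list (6551 bp without replicate 1 and 7899 bp without replicate 2), and the cause was not tested. X minus autosomal arms, -0.033 regions per Mb, was 0.020 without the centromere ends, a reversal near 0, and -0.545 to -0.248 in single replicate lists. It was -0.233, -0.139 and -0.081 with the 3 kb limit, at 1.5 and after merging. The restrictions to regions of both replicates and to 3 to 5 kb were chosen after seeing the data. Of 25 replicate scores of named regions, 15 were within 1 replicate SD of the combined score. That SD comes from the same 2 scores, so regions whose replicates differ meet it more easily. The 2R region from 251629 has a score in replicate 1 alone, so it has no SD and was counted as outside. Nothing is read from this count. No paired analysis was possible because the results come from no test and no list of the inputs was analysed here. With depth unknown, weak calls are the least certain.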
